A study of Mus musculus with 16 samples.

Results

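The genes described here are those of adult mouse haemoglobin: Hba-a1 and Hba-a2, which encode the alpha chain, and Hbb-bs and Hbb-bt, which encode the beta chain. They were taken from a list of 5 genes that also held the globin chaperone gene Ahsp, by matching gene symbols to the Ensembl identifiers of the count tables. The 4 globin genes were found among 49585 identifiers, and Ahsp was not analysed here. The genes were read in FACS-sorted mouse neutrophils, for which the study compared mouse lines with altered oxygen sensing. PHD2 is the enzyme that marks hypoxia-inducible factors for destruction when oxygen is present, and HIF2 is one of those factors.

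All mice were C57BL/6, 8 to 12 weeks old, and the cells came from bones. P2KO libraries came from Vav:cre-PHD2 f/f mice, in which the Vav promoter drives Cre in blood-forming cells and their descendants, red cell precursors among them. P2H2KO libraries came from Vav:cre-PHD2/HIF2 ff/ff mice, which lack both genes in the same cells. P2WT and P2H2WT libraries are described only as wild type, and their titles tie each to one of the 2 lines. Each of the 4 groups held 4 libraries, named here by the number in the title. Titles also end in m or f, which the labels do not explain: 3 m and 1 f in P2KO and in P2H2WT, and 2 of each in P2WT and in P2H2KO. Nothing in the labels says that the libraries came from separate mice, so p values measure the spread between these libraries only. The gating of the sort and any pooling of mice are not given in the sources used here.

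Haemoglobin is a tetramer of alpha and beta chains, each holding a haem group that binds oxygen. Its genes are switched on late in red cell development, when the precursors also make haem and the proteins of the red cell membrane, and they become some of the most abundant transcripts of the cell. Neutrophils, the other main product of the bone marrow, are not known for making haemoglobin. Hypoxia-inducible factors act on red cell production mainly through erythropoietin and iron supply, and AHSP binds free alpha chains until a beta chain is at hand.

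Hba-a1 (ENSMUSG00000069919) lies on chromosome 11 from 32283511 to 32284465 and Hba-a2 (ENSMUSG00000069917) on the same chromosome from 32296489 to 32297298, both on the plus strand. Hbb-bs (ENSMUSG00000052305) lies on chromosome 7 from 103826534 to 103828096 and Hbb-bt (ENSMUSG00000073940) from 103812524 to 103813996, both on the minus strand. Positions refer to GRCm38 and the GENCODE M21 annotation, in which no exon of the 4 overlaps an exon of another gene. The coding sequences of the alpha pair differed at 1 of 426 bases and those of the beta pair at 1 of 441 bases. Of all stretches of 75 bases in the Hba-a1 transcript, 62.2% also occurred in that of Hba-a2, and 64.3% of those of Hbb-bs also occurred in Hbb-bt. In the other direction the shares were 81.0% for Hba-a2 and 56.6% for Hbb-bt. The sharing of reads within a pair therefore depended on how the authors' counting treated reads with several matches, which is not given, and the split within a pair is uncertain. If such reads were dropped, the levels, ranks and shares of all 4 genes and the ratio of alpha to beta would be affected too. No stretch of 75 bases was shared between Hba-a1 and Hbb-bs.

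The sequences before the transcription starts are given to compare the genes outside the coding part. They are 250 bases long, end at the base before the start, and come from RefSeq on GRCm38.p6, where all 4 genes were matched. The RefSeq start lies inside the GENCODE gene given above, by 161 bases in Hba-a1, 3 in Hba-a2, 168 in Hbb-bs and 73 in Hbb-bt. Parts of these windows are therefore transcribed in the longest GENCODE models. Capitals mark 4 motifs, each searched on both strands. CACCC is a motif bound by factors such as KLF1. GATAA is bound by GATA1 and its relatives. CCAAT is a general promoter motif. ATATAA has the letters of a TATA box. The 3 windows below are chr11:32283422-32283671 on the plus strand, and chr7:103827929-103828178 and chr7:103813924-103814173 on the minus strand.
Hba-a1: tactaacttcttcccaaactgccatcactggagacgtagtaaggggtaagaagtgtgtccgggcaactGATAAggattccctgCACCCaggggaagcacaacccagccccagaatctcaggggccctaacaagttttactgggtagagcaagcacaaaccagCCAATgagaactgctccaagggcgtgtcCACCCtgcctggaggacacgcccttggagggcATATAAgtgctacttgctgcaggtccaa
Hbb-bs: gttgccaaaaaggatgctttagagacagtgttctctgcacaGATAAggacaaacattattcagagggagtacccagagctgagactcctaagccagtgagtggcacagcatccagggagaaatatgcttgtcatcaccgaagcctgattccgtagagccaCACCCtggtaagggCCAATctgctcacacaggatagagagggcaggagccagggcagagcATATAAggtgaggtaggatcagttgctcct
Hbb-bt: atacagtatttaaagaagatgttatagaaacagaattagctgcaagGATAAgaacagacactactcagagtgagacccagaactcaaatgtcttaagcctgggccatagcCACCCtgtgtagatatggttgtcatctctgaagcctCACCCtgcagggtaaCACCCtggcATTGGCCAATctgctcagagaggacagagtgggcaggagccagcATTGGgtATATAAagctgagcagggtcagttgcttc
The window of Hba-a2 (chr11:32296242-32296491) was the same as that of Hba-a1 over 247 of 247 bases once shifted by 3 bases. The windows of the beta pair were the same at 127 of 249 bases, or 51%, without gaps. Stretches shared at other distances from the start, such as GATAA, were not counted. This share can therefore fall short of how alike the beta windows are. ATATAA ended close to the start in all 4 genes, beginning 28 bases before it in Hba-a1, 30 in Hbb-bs and 29 in Hbb-bt. CCAAT lay 88, 76 and 75 bases before the start, and in Hbb-bt its reverse complement, ATTGG, lay at 80 and 36 bases as well. GATAA lay 182, 209 and 204 bases before the start. CACCC occurred at 60 and 167 bases in Hba-a1, at 90 in Hbb-bs and at 89, 104 and 140 in Hbb-bt. Over 32851 RefSeq windows of the same length, CACCC was found in 52.01%, CCAAT in 33.85%, GATAA in 22.58% and ATATAA in 9.099%. The core letters of a hypoxia response element, ACGTG, were in none of the globin windows and in 16.57% of all windows. GCGTG was in both alpha windows, in neither beta window and in 28.16% of all windows. A match is a run of letters and no measured binding site.

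The globin genes were among the most abundant transcripts of these sorted cells. Library totals ran from 23450746 to 28601284 counts, and the 4 genes together took between 1.64% and 3.68% of them. Hbb-bs ranked between 1 and 8 among all genes by count, Hba-a1 between 3 and 13, Hbb-bt between 10 and 24, and Hba-a2 between 11 and 29. Levels are given as CPM, the count relative to the scaled total of its library. Neutrophil genes stood beside the globins: S100a9, which encodes a calcium-binding protein of neutrophils, averaged 25215 ± 7376 (SD, n = 16) CPM per kilobase of exon (RPKM), S100a8 12863 and the granule gene Ngp 9651. The 12 genes of a neutrophil list summed to between 31027 and 81167 CPM per library, and none of the 12 was at 0. Both kinds of transcript were thus measured in every library, and which cells held the globin RNA was not tested. In bulk libraries fewer cells of a type and less RNA per cell cannot be told apart. Over the whole gene, counts of the targeted genes gave no clear mark of the deletions. Egln1, which encodes PHD2, stood at 49.5 ± 6.4 (SD, n = 4) CPM in P2KO, 48.7 ± 2.2 in P2WT, 53.2 ± 4.4 in P2H2KO and 52.2 ± 3.0 in P2H2WT. Epas1, which encodes HIF2 alpha, stood at 5.65 ± 2.2 CPM in P2H2KO and 3.56 ± 1.0 in P2H2WT. The position of the deleted exons is not given in the sources used here, so these counts do not check the labels.

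Per length of exon, the beta gene Hbb-bs stood highest of the globins, with a mean of 16878 ± 3280 (SD, n = 16) RPKM. Hba-a1 followed with 8421 ± 1592, then Hbb-bt with 5763 ± 1149 and Hba-a2 with 5495 ± 1097. The last 2 were close, with Hbb-bt above Hba-a2 in 15 of 16 libraries at a ratio of 0.996 to 1.12 (median 1.05). Other genes of red cell precursors were far lower on this scale. Slc4a1, the anion exchanger of the red cell membrane, averaged 1312 RPKM, and Alas2, the erythroid first enzyme of haem synthesis, 729. Klf1, the regulator that activates the adult beta genes, averaged 217 RPKM. The ratio of Hbb-bs to Alas2 per length kept to between 22.3 and 24.7 in all 16 libraries, and that to Slc4a1 to between 11.5 and 14.8. The ratio of Hbb-bs to S100a9 per length was far less fixed, from 0.298 to 1.22.

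**Figure D1:**
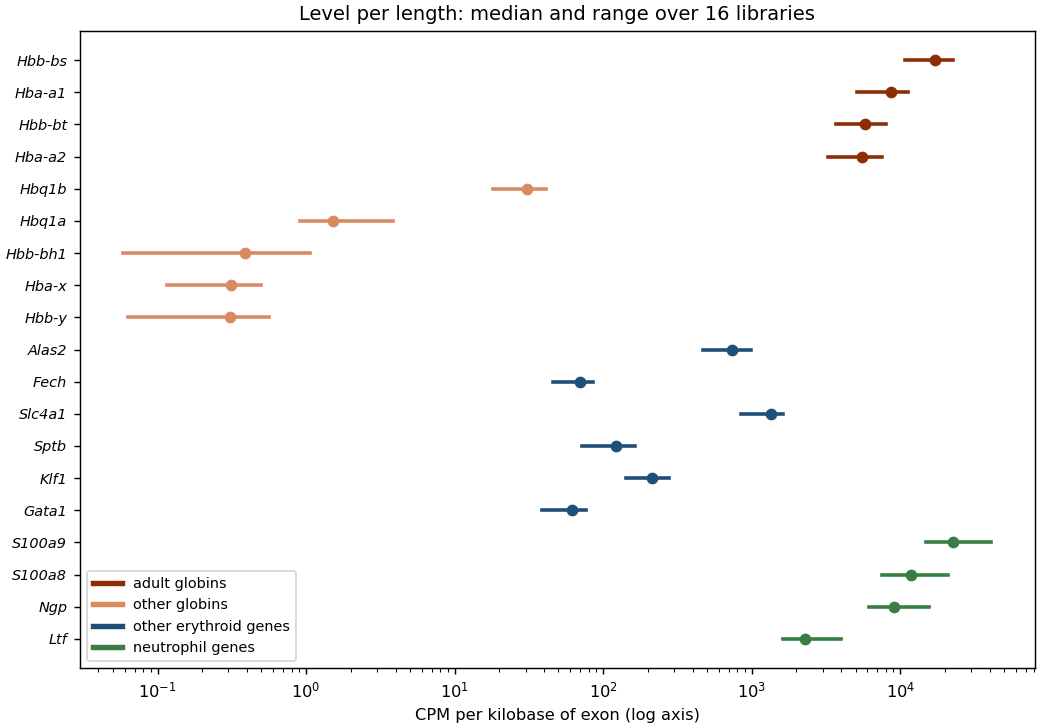
Level per length of the haemoglobin genes and of named red cell and neutrophil genes, in RPKM on a log axis, with the point at the median and the line from the lowest to the highest of 16 libraries. Hbb-bs has the highest median of the 4 globins (17165 RPKM), and the genes of haem synthesis and of the membrane sit below all 4.

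Genes of other globins stood far below the 4 adult genes. Hbq1b, a theta-like gene between the alpha genes, was the highest of the 11 other globins listed, at 20.9 ± 5.3 (SD, n = 4) CPM in P2KO, 19.1 ± 1.7 in P2WT, 20.7 ± 4.4 in P2H2KO and 24.8 ± 3.4 in P2H2WT. Hbb-bs was between 506 and 643 times higher per length in the 16 libraries. The embryonic genes Hba-x, Hbb-y and Hbb-bh1, which red cells of the early embryo use, averaged 0.310, 0.312 and 0.490 RPKM. Of the other globins only Hbq1b, Hbq1a, Hbb-bh1 and Cygb passed the filter on low counts in the P2 line, and 0 of these 4 was called there. Cygb, which encodes the cytoglobin of fibroblast-like cells, averaged between 0.193 and 0.503 CPM by group. The 4 adult genes thus held nearly all globin counts in every group.

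Hba-a1 was counted at 6833, 7662, 4181 and 7305 CPM in P2KO replicates 1, 5, 6 and 9, and at 6089, 6464, 7402 and 5548 CPM in P2WT replicates 10, 3, 4 and 7. In the other line it stood at 8461, 7178, 4599 and 6803 CPM in P2H2KO replicates 11, 12, 15 and 17, and at 7907, 9115, 7331 and 6527 CPM in P2H2WT replicates 13, 14, 16 and 18. P2KO replicate 6 and P2H2KO replicate 15 were the lowest libraries of the series, P2H2WT replicate 14 was the highest, and the ranges of all groups overlapped. The group means were 6495 ± 1580 (SD, n = 4) in P2KO, 6376 ± 781 in P2WT, 6760 ± 1606 in P2H2KO and 7720 ± 1088 in P2H2WT.

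Hba-a2, the second alpha gene, was counted at 3612, 4305, 2186 and 3731 CPM in the P2KO libraries and at 3222, 3543, 4023 and 2940 CPM in the P2WT libraries, in the same order. It stood at 4391, 3863, 2430.5 and 3571 CPM in P2H2KO and at 4297, 5028, 4055 and 3448 CPM in P2H2WT. The same libraries were lowest and highest as for Hba-a1, and again no group was separate from another. Means were 3458 ± 901 (SD, n = 4) in P2KO, 3432 ± 465 in P2WT, 3564 ± 828 in P2H2KO and 4207 ± 654 in P2H2WT.

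Hbb-bs, the more abundant beta gene, was counted at 12931, 15156, 8203 and 13491 CPM in P2KO and at 11103.5, 12428, 14429 and 10435 CPM in P2WT. It stood at 15948, 13435, 8482 and 12907.5 CPM in P2H2KO and at 15441, 17301, 13557 and 12152 CPM in P2H2WT. One low library in each deficient group stretched its range, and the other 3 lay among or close to the wild-type libraries of their line. Means were 12445 ± 2982 (SD, n = 4) in P2KO, 12099 ± 1760 in P2WT, 12693 ± 3105 in P2H2KO and 14612 ± 2242 in P2H2WT.

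Hbb-bt, the second beta gene, was counted at 4048, 4882, 2587 and 4117 CPM in P2KO and at 3383, 3866, 4510 and 3262 CPM in P2WT. It stood at 4844, 4078, 2654 and 3964 CPM in P2H2KO and at 4704, 5602, 4466 and 3854 CPM in P2H2WT. Libraries fell in the same places as for the other 3 genes, with overlap between all groups. Means were 3909 ± 959 (SD, n = 4) in P2KO, 3755 ± 567 in P2WT, 3885 ± 909 in P2H2KO and 4656 ± 725 in P2H2WT. From the lowest to the highest library the 4 genes spanned 2.11-fold (Hbb-bs) to 2.30-fold (Hba-a2), and their coefficients of variation over 16 libraries were 18.9% to 19.96%.

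**Figure D2:**
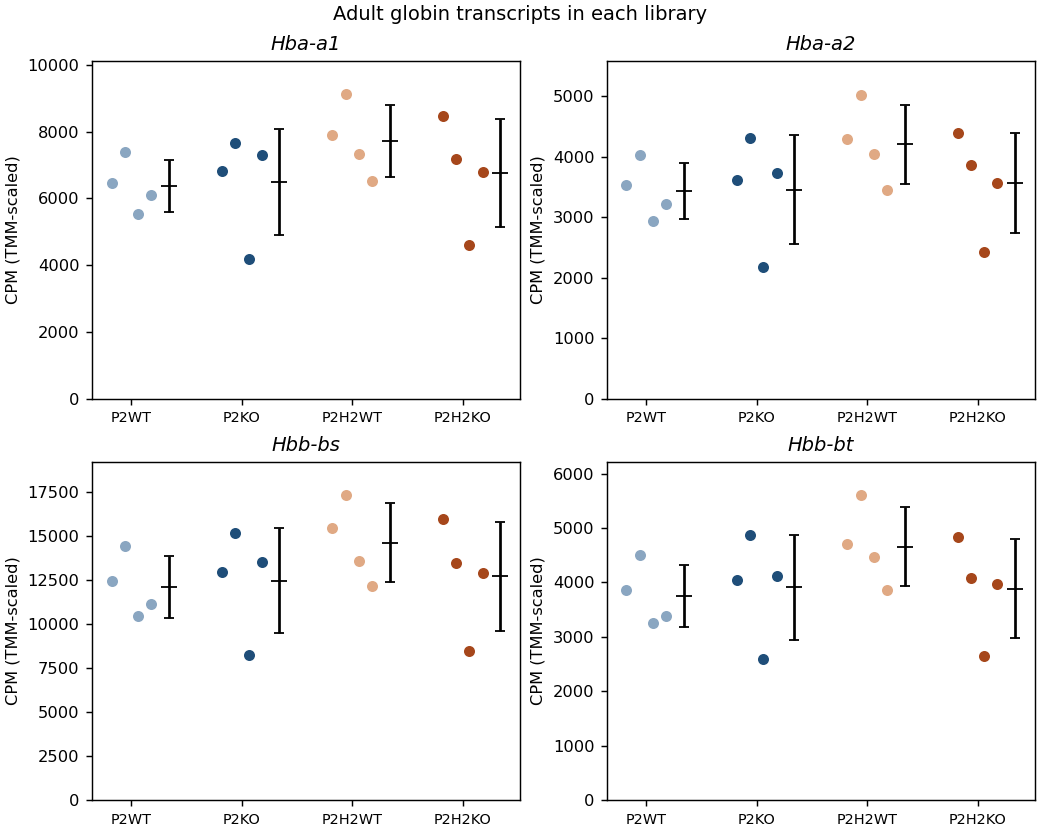
CPM of the 4 haemoglobin genes in each of the 16 libraries, by group, with the group mean and SD. In every panel the lowest points are P2KO replicate 6 and P2H2KO replicate 15, and all groups overlap.

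The first comparison asks what loss of PHD2 did to the globin genes. In P2KO against P2WT, 0 of 4 globin genes was called, against 0.0437% of all 13734 genes tested (6 genes). The log2 fold changes were 0.04 for Hba-a1, 0.02 for Hba-a2, 0.05 for Hbb-bs and 0.07 for Hbb-bt, each with a standard error of 0.20, and the median of all genes was 0.02. After Benjamini-Hochberg adjustment, edgeR's quasi-likelihood test gave an adjusted p of 1 for all 4, and the unadjusted p lay between 0.740 and 0.923. The 95% interval for Hbb-bs ran from -0.41 to 0.51. Groups did not overlap for 0 of 4 globins and for 2.25% of all genes. Single libraries set the size and the sign of these values. Without P2KO replicate 6 the 4 log2 fold changes were 0.20, 0.19, 0.21 and 0.22, with edgeR adjusted p from 0.471 to 0.51, and without P2KO replicate 5 they were -0.05, -0.10, -0.06 and -0.06. In all, 11 of 32 values from fits without 1 library turned negative. They were also negative, at -0.15, -0.18, -0.14 and -0.12, with the mean of the 4 red cell lists as a covariate, and none was called in any of these fits.

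Deletion of PHD2 together with HIF2 was compared with its own wild type in the same way. In P2H2KO against P2H2WT, 0 of 4 globin genes was called, against 0.0744% of 13435 genes tested (10 genes). The log2 fold changes were -0.19 for Hba-a1, -0.24 for Hba-a2, -0.20 for Hbb-bs and -0.26 for Hbb-bt, with standard errors of 0.19 to 0.21 and a median of 0.0011 over all genes. Each Benjamini-Hochberg adjusted p of edgeR's quasi-likelihood test was 1, and the unadjusted p lay between 0.214 and 0.357. The 95% interval for Hbb-bs ran from -0.67 to 0.27. Groups did not overlap for 0 of 4 globins and for 1.71% of all genes. P2H2KO replicate 15 carried most of the difference. Without it the values were -0.04, -0.09, -0.05 and -0.11, with an edgeR adjusted p of 1. With the red cell lists as a covariate they were 0.0034, -0.04, 0.0021 and -0.07.

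Whether the 2 deletions moved the globins differently was tested as a difference of effects over all 16 libraries. It was 0.22 for Hba-a1, 0.25 for Hba-a2, 0.24 for Hbb-bs and 0.32 for Hbb-bt on the log2 scale, with standard errors of 0.29 to 0.30. The adjusted p (edgeR's quasi-likelihood test, Benjamini-Hochberg) was 0.999 for each. For 0 of 4 globins and 0% of 14080 genes was a difference called, and 212 genes (1.51%) had an unadjusted p under 0.05. DESeq2 also called 0 genes. Without P2H2KO replicate 15 the differences were 0.07 for Hba-a1 and 0.17 for Hbb-bt, and without P2KO replicate 6 they were 0.38 and 0.47. With the red cell lists as a covariate all 4 differences turned negative, at -0.16, -0.15, -0.14 and -0.06. Of 44 values from settings other than leaving out 1 library, 7 turned negative.

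**Figure D3:**
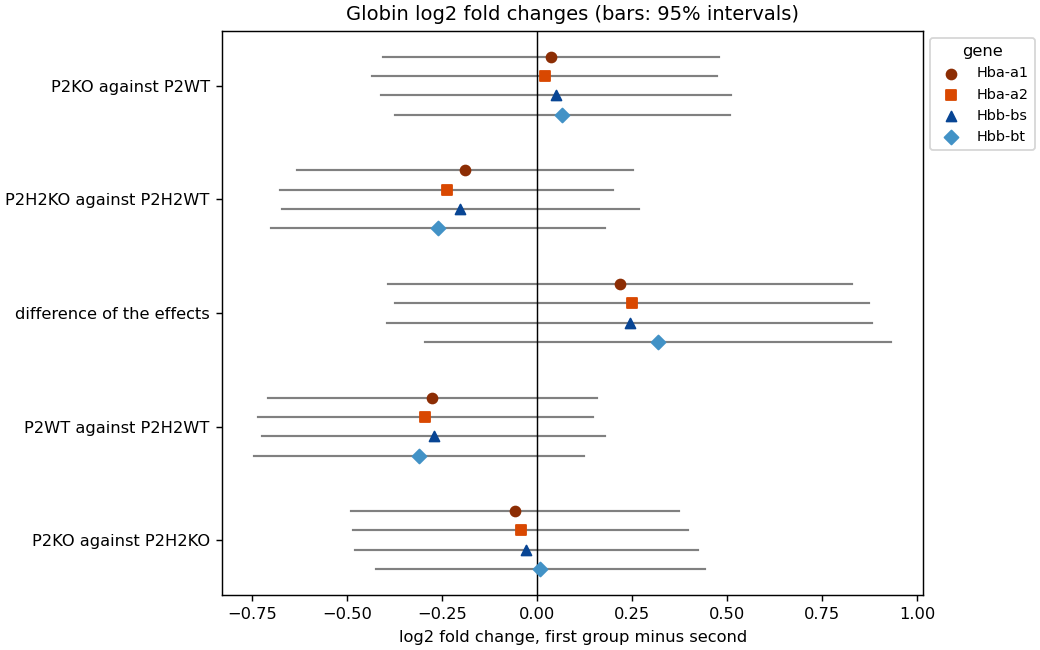
Log2 fold changes of the 4 haemoglobin genes with 95% intervals in each comparison. Every interval crosses 0, with estimates of 0.02 to 0.07 for P2KO against P2WT and of -0.26 to -0.19 for P2H2KO against P2H2WT.

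Levels were also compared between the lines, where the line and the count table it was deposited in cannot be told apart. These comparisons reuse the same libraries as those within the lines. Summed over the 4 genes, the wild-type libraries averaged 25662 ± 3563 (SD, n = 4) CPM in the P2 line and 31195 ± 4688 in the P2H2 line. In P2WT against P2H2WT, 0 of 4 globins was called, against 0.227% of 14080 genes, with log2 fold changes of -0.28, -0.29, -0.27 and -0.31 for Hba-a1, Hba-a2, Hbb-bs and Hbb-bt and edgeR adjusted p from 0.699 to 0.773. In P2KO against P2H2KO, 0 of 4 was called, against 0.923% of genes, with values of -0.06, -0.04, -0.03 and 0.01 and edgeR adjusted p from 0.894 to 0.985. Groups did not overlap for 0 of 4 globins in either, against 7.77% and 6.99% of all genes. Ordered by the mean, Hba-a1, Hba-a2 and Hbb-bs went from P2WT to P2KO, P2H2KO and P2H2WT, with P2KO and P2H2KO exchanged for Hbb-bt. For Hba-a1, Hba-a2 and Hbb-bs no pair of neighbours in that order was called different. For Hbb-bt, P2WT and P2H2KO, and P2KO and P2H2WT, became neighbours, and these pairs were not tested. With the mean of the 4 red cell lists as a covariate, the values for P2WT against P2H2WT were 0.02, 0.01, 0.03 and -0.02. That covariate gave the upper end of a range. Over the 11 settings other than leaving out 1 library, the values for this comparison ran from -0.32 to 0.03. Those for P2KO against P2H2KO ran from -0.29 to 0.02. For P2KO against P2H2KO, leaving out single libraries gave -0.20 to 0.16 over the 4 genes, with both signs.

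Although their levels ranged over more than 2-fold, the 4 genes kept nearly fixed proportions. The ratio of alpha to beta counts lay between 0.590 and 0.643 in the 16 libraries, with a median of 0.618 and a coefficient of variation of 2.23%. By group it averaged 0.607 ± 0.017 (SD, n = 4) in P2KO, 0.620 ± 0.017 in P2WT, 0.624 ± 0.0084 in P2H2KO and 0.620 ± 0.011 in P2H2WT. The groups overlapped in this ratio, and no library was separate from the rest.

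Within the pairs, Hba-a1 was 1.78 to 1.96 times Hba-a2 in counts, with a median of 1.89, and Hbb-bs was 3.04 to 3.29 times Hbb-bt, with a median of 3.20. The means of the alpha pair by group ran from 1.84 ± 0.039 (SD, n = 4) in P2H2WT to 1.90 ± 0.029 in P2H2KO. Those of the beta pair ran from 3.14 ± 0.11 in P2H2WT to 3.26 ± 0.046 in P2H2KO. Per kilobase of exon the ranges were 1.46 to 1.61 for the alpha pair and 2.78 to 3.02 for the beta pair. The part of reads that match both genes of a pair in these ratios was not tested. Across the 16 libraries, Pearson's r between log2 CPM of any 2 of the 4 genes was 0.985 to 0.994. These values describe libraries that share depth and cell makeup and carry no p.

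**Figure D4:**
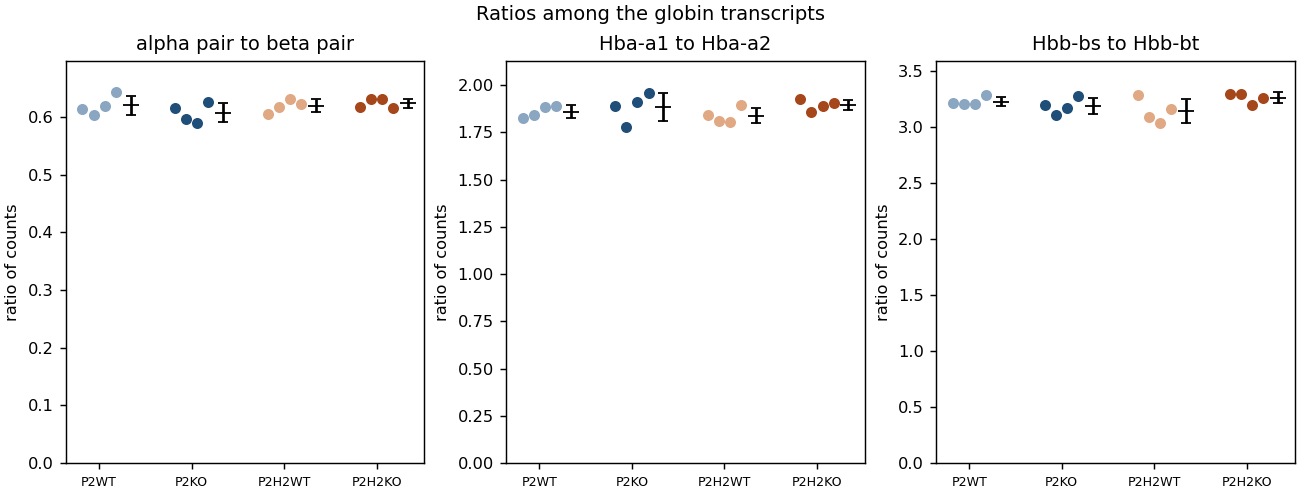
Ratios of counts within the haemoglobin genes in each library, by group: alpha pair to beta pair, Hba-a1 to Hba-a2, and Hbb-bs to Hbb-bt, with the group mean and SD. The 3 ratios lie within 0.590 to 0.643, 1.78 to 1.96 and 3.04 to 3.29.

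Genes of the same red cell programme were described through 4 lists: 8 genes of haem synthesis, 15 of the red cell membrane, 10 regulators and 19 genes of late maturation and transport. In P2KO against P2WT none of these genes was called, and none had an unadjusted p under 0.05, as 3.49% of all genes did. Positive log2 fold changes were found for 8 of 8 haem synthesis genes (median 0.16), 15 of 15 membrane genes (0.16), 10 of 10 regulators (0.15) and 18 of 18 late genes tested (0.14). Over all genes 57.8% were positive with a median of 0.02, and the 4 globins had a median of 0.04. Slc4a1 had 0.13 (SE 0.19), Alas2 0.06 (SE 0.18), and Tfrc, the transferrin receptor that brings in iron, 0.24 (SE 0.15). The membrane skeleton genes Sptb and Epb41 had 0.17 (SE 0.18) and 0.10 (SE 0.17), Cpox of haem synthesis 0.15 (SE 0.16), Car2, a carbonic anhydrase, 0.15 (SE 0.19) and Slc25a37, which carries iron into mitochondria, 0.22 (SE 0.19). The most abundant regulators, Zfpm1, Tal1 and Nfe2, had 0.19 (SE 0.15), 0.18 (SE 0.18) and 0.08 (SE 0.08). Gata1, the master regulator of red cell genes, had 0.16 (SE 0.15) and Epor, the erythropoietin receptor, 0.14 (SE 0.19).

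In P2H2KO against P2H2WT the signs turned, again with 0 genes of the 4 lists called and 0 at an unadjusted p under 0.05, against 2.63% of all genes. Negative values were found for 8 of 8 haem synthesis genes (median -0.13), 15 of 15 membrane genes (-0.10), 7 of 10 regulators (-0.05) and 17 of 19 late genes (-0.16), against 49.5% of all genes. Alas2 had -0.20 (SE 0.21), Fech, which puts iron into haem, -0.15 (SE 0.18), Slc4a1 -0.15 (SE 0.21) and Tfrc -0.18 (SE 0.23). Zfpm1, Tal1 and Nfe2 had -0.08 (SE 0.25), -0.02 (SE 0.22) and 0.0051 (SE 0.09). In the difference of the effects, 0 genes were called and the medians were 0.27, 0.23, 0.20 and 0.26, beside 0.25 for the globins and 0.0012 for all genes, of which 50.4% were positive. Most genes of the lists shared the low libraries of the globins. Exceptions were genes such as Nfe2, with a Pearson's r of 0.17 with the globins across all libraries. The common sign of a list therefore holds no more samples than a single gene does.

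Between the lines, globins and membrane genes did not run in parallel. For P2KO against P2H2KO the 15 membrane genes had a median of 0.28, with 15 of 15 positive against 51.2% of all genes, while the globins had a median of -0.04. For P2WT against P2H2WT the medians were 0.0018 and -0.28. The mean log2 CPM of the 4 globins minus that of the membrane list was 3.27 ± 0.065 (SD, n = 4) in P2KO, 3.40 ± 0.053 in P2WT, 3.59 ± 0.17 in P2H2KO and 3.70 ± 0.11 in P2H2WT. In the P2 line the 8 libraries ran from 3.20 to 3.44, and in the P2H2 line from 3.44 to 3.85. With haem synthesis genes in place of the membrane list the ranges were 3.412 to 3.649 and 3.645 to 3.891, which overlapped slightly. With the regulators they were 4.59 to 4.99 and 4.85 to 5.27, a wider overlap. Within each line, the deficient and wild-type libraries had overlapping ranges against the membrane list. These differences of scores were given no test.

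**Figure D5:**
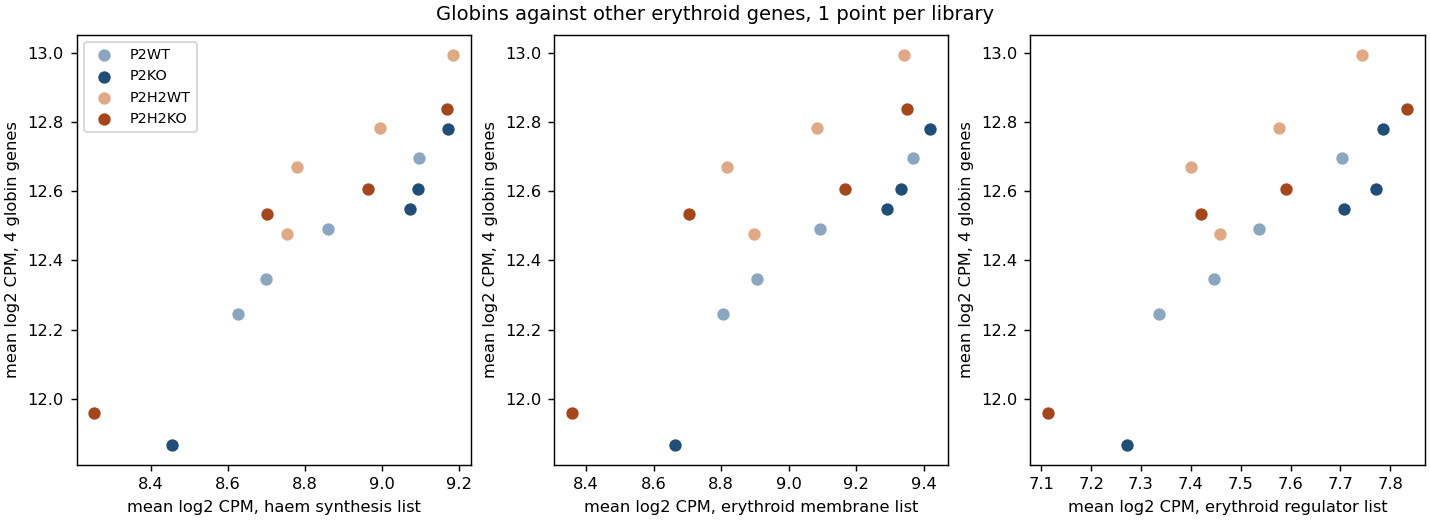
Mean log2 CPM of the 4 haemoglobin genes (y axis) against that of the haem synthesis, membrane and regulator lists (x axes of the 3 panels), with 1 point per library coloured by group. P2KO replicate 6 and P2H2KO replicate 15 are lowest in globins and in all 3 lists. Other libraries follow less closely: P2H2KO replicate 17 is low in the membrane list, with globins near the middle.

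Among all genes tested, those closest to the mean log2 CPM of the 4 globins across 16 libraries were Alas2 (Pearson's r 0.986), Slc25a39 (0.985), Fam220a (0.984), Isca1 (0.982), Ube2l6 (0.980), March2 (0.975), Nt5c3 (0.967), Mkrn1 (0.966), Slc48a1 (0.966) and Tent5c (0.966). Taken as deviations from the group means, the same 10 correlations were 0.968 to 0.990. Alas2 starts haem synthesis in red cell precursors, Slc25a39 is a mitochondrial carrier, and Slc48a1 carries haem across membranes. Only Alas2, Slc25a39 and Ube2l6 stood in the lists. Fech had an r of 0.950, Slc4a1 0.930 and Hbq1b 0.943. The 16 libraries share depth and cell makeup with every gene compared, and these values carry no p.

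Neutrophil genes were compared with the globins library by library. P2KO replicate 6, at 17157 CPM of summed globins, held 72491 CPM of the neutrophil list, the highest sum of its line. P2H2KO replicate 15, at 18165 CPM of globins, held 65388 CPM of that list. P2H2WT replicate 18 held more, 68942.5 CPM, with globins at 25980 CPM. P2H2KO replicate 17 held the most, 81167 CPM, with globins at 27246 CPM, a value near the middle of the series. Across all libraries each of the 12 neutrophil genes had a negative Pearson's r with the mean log2 CPM of the globins, from -0.67 to -0.33. Taken as deviations from the group means, r ran from -0.79 to -0.58. These values carry no p. In P2H2KO against P2H2WT all 12 neutrophil genes had positive values (median 0.19), against 50.5% of all genes, and in P2KO against P2WT 5 of 12 did (median -0.0070), with 0 called in each. The membrane list summed to between 9211 and 18349 CPM, and no gene of it was at 0. The part of the neutrophil and red cell transcript shares in the globin values was not tested. When the mean of the haem synthesis and membrane lists was entered as a covariate, chosen after the data had been seen, the globin values for P2KO against P2WT were -0.14, -0.17, -0.12 and -0.11 with an edgeR adjusted p of 0.995.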

How the data were processed

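The data are RNA sequencing counts of 16 libraries in 4 groups, set by titles and descriptions. The authors deposited raw counts per Ensembl gene, 1 table per line with 8 libraries each, made with HTSeq on mm10 per the submitters' processing notes. Aligner, annotation, strand, read length and handling of reads with several matches are not given in the sources used here. Members and lists were chosen with earlier results of these data known. Symbols came from a GENCODE M21 table (49326 of 49585 identifiers matched). For Ahsp no identifier was paired, so means over members used 4 genes in place of 5. One gene of the late red cell list is not reported here individually.

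Each line was fitted alone with edgeR 4.0.16 in R 4.3.3 (filterByExpr, TMM, robust quasi-likelihood fit, two-sided tests, Benjamini-Hochberg over all genes tested, threshold 0.05). The difference of effects and comparisons between lines used all 16 libraries. Standard errors came from the quasi-likelihood F statistic. CPM used TMM-scaled totals, and log2 CPM a prior count of 2. RPKM is CPM per kilobase of the union of exons. The fit was tested on simulated data. All 24 pairs of libraries within groups differed beyond sampling noise (chi-square per degree of freedom 11.5 or more). Alternatives were DESeq2 1.42.0, other scaling, filters, covariates, summed pairs and leaving out each library. Named genes were the members, the 3 most abundant of each list, genes called, and the 10 most like the members. Of the endothelial, monocyte, lymphocyte and platelet lists only sums and called genes are given, and of the neutrophil list 3 genes. Other genes were named for their known role, with values already seen.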

Additional observations from a re-analysis of the deposited data

How the results depend on the processing

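Under every alternative run, 0 of 4 globin genes was called in each comparison. Some values between the lines came near the threshold. Over the edgeR and DESeq2 fits with all libraries or other settings, the lowest Benjamini-Hochberg adjusted p was 0.0605 for P2WT against P2H2WT. It was 0.0945 for P2KO against P2H2KO. The log2 fold changes of these fits ran from -0.318 to 0.0292 for P2WT against P2H2WT. For P2KO against P2H2KO they ran from -0.288 to 0.0202. For P2KO against P2WT the lowest unadjusted p of these fits was 0.0182. No paired analysis was possible because no replicate number is shared between groups. With the mean of the 4 red cell lists as a covariate, the log2 fold changes of Hba-a1, Hba-a2, Hbb-bs and Hbb-bt turned to -0.15, -0.18, -0.14 and -0.12 for P2KO against P2WT, with edgeR adjusted p of 0.993, and to -0.16, -0.15, -0.14 and -0.0587 for the difference of the effects. With that covariate Hba-a1 and Hbb-bs turned to 0.0034 and 0.0021 for P2H2KO against P2H2WT, and Hba-a1, Hba-a2 and Hbb-bs to 0.0179, 0.0121 and 0.0292 for P2WT against P2H2WT. With haem synthesis and membrane genes alone as the covariate, an alternative chosen after seeing the data, the values were -0.14, -0.17, -0.12 and -0.11 for P2KO against P2WT, and -0.0417, -0.0223 and -0.0196 for Hba-a1, Hba-a2 and Hbb-bs in the difference of the effects. Hbb-bt in P2KO against P2H2KO, at 0.01 as reported, turned to -0.0063 with globins left out of library totals, -0.026 with the title letter (m or f) as a covariate, -0.0759 with the red cell lists, -0.0196 with the pairs summed and -0.22 with haem synthesis and membrane genes. The cause of these turns was not tested.

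Leaving out each library in turn gave, for Hba-a1, Hba-a2, Hbb-bs and Hbb-bt in that order, -0.0499 to 0.20, -0.0993 to 0.19, -0.0558 to 0.21 and -0.055 to 0.22 for P2KO against P2WT, the lowest without P2KO replicate 5. It gave -0.32 to -0.04, -0.36 to -0.09, -0.33 to -0.05 and -0.39 to -0.11 for P2H2KO against P2H2WT, and -0.38 to -0.19, -0.40 to -0.20, -0.39 to -0.18 and -0.43 to -0.21 for P2WT against P2H2WT. For P2KO against P2H2KO it gave -0.20 to 0.10, -0.19 to 0.12, -0.18 to 0.13 and -0.14 to 0.16. For the difference of the effects it gave 0.07 to 0.38, 0.10 to 0.42, 0.09 to 0.40 and 0.17 to 0.47.

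The counts of all genes called moved more. For P2KO against P2WT (6 genes) they were 23 with DESeq2, 10 with the red cell lists, 10 with all 16 libraries in 1 fit and 11 with haem synthesis and membrane genes, and 4 to 6 without single libraries. For P2H2KO against P2H2WT (10 genes) they were 42 with DESeq2, 22 with haem synthesis and membrane genes, and 6 to 9 without single libraries (6 without P2H2WT replicate 13). For P2WT against P2H2WT (32 genes) they were 9 with no filter, 0 with at least 10 counts in every library, 291 with DESeq2, 124 with the title letter, 2795 with the red cell lists, 248 with haem synthesis and membrane genes, and 0 to 182 without single libraries: 0 without P2WT replicate 3, 4 or 7 or P2H2WT replicate 13, 1 without P2WT replicate 10 or P2H2WT replicate 16, 12 to 15 without P2KO replicate 5, P2H2KO replicate 12 or P2H2WT replicate 14, and 182 without P2KO replicate 9. For P2KO against P2H2KO (130 genes) they were 56 with at least 10 counts, 422 with DESeq2, 210 with the title letter, 1074 with the red cell lists, 45 without both low-globin libraries, and 38 to 179 without single libraries, with 38 to 68 without P2KO replicate 5 or 9 or any 1 P2H2KO library. For the difference of the effects they were 0 to 0. Counting error was small beside the spread between libraries. In P2KO replicate 6 the 95% Wilson interval of the summed globin share ran from 1.633% to 1.643%, and it covers counting error only.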

Other observations

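Genes of bone marrow macrophages, which take up aged red cells and recycle haem iron, were measured in the same libraries. The 12 genes of the macrophage list summed to between 968 and 1795 CPM per library. In P2H2KO against P2H2WT all 12 had negative log2 fold changes (median -0.46), against 49.5% of all genes, with 10 of 12 at an unadjusted p under 0.05, against 2.63% of all genes, and 0 called in edgeR's quasi-likelihood test with Benjamini-Hochberg adjustment. The list was chosen with earlier results of these data known, and its genes were read in the same libraries. Such a count therefore holds no more samples than a single gene does. Cd5l, a gene of tissue macrophages, averaged 27.2 CPM in P2H2KO and 51.4 in P2H2WT, a log2 fold change of -0.92 (SE 0.19) with an edgeR adjusted p of 0.412 and no overlap between the groups, which held for 3 of the 12 genes and 1.71% of all genes. Vcam1 and Axl, with Slc40a1 the most abundant of the list, had -0.53 (SE 0.20) and -0.45 (SE 0.13). Hmox1, which breaks down haem, had -0.47 (SE 0.22) and Slc40a1, the iron exporter, -0.20 (SE 0.15). In P2KO against P2WT 11 of 12 were negative (median -0.27), with 2 of 12 at an unadjusted p under 0.05, against 3.49% of all genes, and 0 called. The difference of the effects was positive for 12 of 12 genes, against 50.4% of all genes, with a median of 0.18 and 0 called.

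Other lists stood far below the globins. Per library, platelet and megakaryocyte genes summed to between 47.5 and 287 CPM, B cell genes to between 222 and 770, T and NK cell genes to between 79.3 and 123, endothelial genes to between 91.5 and 209, and monocyte genes to between 1584 and 4462. Of these 5 lists, 2 endothelial genes were called, both in P2KO against P2H2KO: Cdh5 at a log2 fold change of 0.88 and Emcn at 1.92, with edgeR adjusted p of 0.0435 and 0.0417, where 0.923% of all genes were called. Cdh5 averaged 18.3 ± 6.1 (SD, n = 4) CPM in P2KO and 9.93 ± 1.3 in P2H2KO. Emcn was low, at 2.26 ± 1.3 and 0.589 ± 0.34 CPM. Both calls lay just under the threshold, and the number of genes called there moved with single libraries. In that comparison 5 of 8 endothelial genes did not overlap between the groups, against 6.99% of all genes, and the median was 0.97. The wild-type libraries differed in the same way, with 6 of 8 endothelial genes not overlapping in P2WT against P2H2WT, against 7.77% of all genes, a median of 0.95 and 0 called. This list too was chosen with earlier results known, and its counts hold no more samples than a single gene does.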
